A study of Mus musculus with 6 samples.

Results

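The genes described here encode the ephrin, semaphorin, Slit and netrin guidance cues and their receptors. They were chosen by gene symbol alone: Eph receptors, ephrins, semaphorins of classes 3 to 7, plexins A to D, Slits, Robos, neuropilins and netrins, which gave 63 of the 17189 genes in the deposited count table. RNA was sequenced from fluorescence-sorted ureteric bud cells of mouse embryos at E16.5. The conditional knockout (cKO) embryos carried a Hoxb7Cre-GFP transgene and 2 floxed copies of Ash2l (Ash2l F/F), and the control embryos carried the same transgene and 1 floxed copy (Ash2l F/+), with 3 libraries in each group. Controls therefore express Cre too and can lose 1 Ash2l copy. Cre is driven by the Hoxb7 promoter, which is active in the ureteric epithelium, and the labels do not say whether a library is 1 embryo or a pool. The ASH2L protein is shared by all SET1 and MLL enzyme complexes, which methylate the promoter nucleosomes of active genes at lysine 4 of histone H3.

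Guidance cues were named for steering axons, but the same ligands and receptors shape branching epithelia. Ephrins are bound to the cell surface and signal to Eph receptor tyrosine kinases on the neighbouring cell, with signals passing back into the ephrin cell as well. Ephrin-As are held by a lipid anchor and ephrin-Bs span the membrane. Semaphorins signal through plexins, and the secreted class 3 semaphorins mostly need a neuropilin as co-receptor. Slits are secreted ligands of Robo receptors, and netrins act through DCC, neogenin and UNC5 receptors. In the mouse kidney, Slit2 and Robo2 limit where the ureteric bud forms, Sema3a restrains its branching, and plexin B1 and plexin B2 with their class 4 semaphorins take part in branching.

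Library totals ranged from 9620235 to 9860475 counts in cKO and from 10359475 to 10538314 counts in controls. Ash2l (Entrez Gene 23808), the targeted gene, had 451, 292 and 214 counts in cKO replicates 1, 2 and 3, against 1933, 1853 and 1624 counts in control replicates 1, 2 and 3. It fell in cKO, with a log2 fold change of -2.43 (SE 0.284, edgeR adjusted p = 0.00786). Markers of the ureteric epithelium were abundant in every library and lower in cKO: their summed level was 6324 to 7211 TMM-scaled CPM (counts relative to library size) in cKO and 10792 to 12035 CPM in controls, and 5 of 13 fell with 6 libraries and 9 of 13 without cKO replicate 3, against 3.59% and 14.9% of all tested genes. Hoxb7, whose promoter drives the transgene used for sorting, fell in both. Library cKO replicate 3 stood apart from the others. In it, 1453 genes were listed at 0 although all other libraries had over 10 counts of each (12.4% of 11738 such genes), and by the same measure at most 3 genes were missing from any other library. Among guidance genes this affected 7 of 39 (17.9%), namely Efna2, Epha7, Ephb3, Ntn3, Sema3a, Sema4c and Sema4f. Calls of guidance genes are given with and without it. Y-linked reads also went with the group: Ddx3y, Uty and Kdm5d had reads in every control and none in any cKO library, while Eif2s3y had 504 counts in cKO replicate 3 and none in the other cKO libraries, so embryo sex and genotype cannot be told apart.

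Of the 63 guidance genes, 48 passed the filter on low counts, and with all 6 libraries only 1 of them rose and 1 fell in cKO. Sema3d, a secreted semaphorin, rose, and Ephb4, a receptor of B-type ephrins, fell. This is 2.08% of the tested members in each direction, against 3.52% of all 13047 tested genes that rose and 3.59% that fell. Without cKO replicate 3, 11 of 50 tested members rose (22.0%) and 8 fell (16%), against 13.7% and 14.9% of all 13660 genes. The shares were near the background apart from the share that rose without cKO replicate 3, which was higher; that difference was not tested. The median log2 fold change was 0.09 over the members and -0.04 over all tested genes with 6 libraries, and 0.22 over the members and 0.01 over all genes without cKO replicate 3. The direction was mixed, with 27 members above and 21 below 0 in the first comparison. These values come from bulk RNA, in which fewer cells of a type and less RNA per cell cannot be told apart.

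Every cKO library lay above every control for 12 of the 48 tested members (25%) and below every control for 9 (18.8%), against 16.7% and 20.7% of all tested genes. Without cKO replicate 3 these were 20 of 50 members (40%) above and 10 (20%) below, against 29.1% and 26.5% of all tested genes. Ephb1 and Nrp2 passed the filter only through their cKO libraries, as did Plxnb3 without cKO replicate 3, and Sema4g then passed only through controls. These genes had to differ, and their tests are not read. Ephb1 and Nrp2 are among the 12 members above every control, and with Plxnb3 among the 20. Those shares therefore include members that had to be higher in cKO. With the genes that passed through 1 group only left out, 1 of 46 members rose and 1 fell with 6 libraries. Without cKO replicate 3, 10 of the 46 then left rose (21.7%) and 8 fell (17.4%). All of the 8 members that fell without cKO replicate 3 were also below every control in that library. However, 2 of them, Efna2 and Ephb3, were listed at 0 there. Ephb6 had 5 counts in cKO replicate 3, against 209 and 213 counts in cKO replicates 1 and 2. Of the 11 that rose without cKO replicate 3, 6 were also above every control in it: Efnb2, Epha2, Ephb1, Plxnc1, Sema3b and Sema3d. The other 5, Efna5, Epha4, Sema3c, Sema5a and Slit2, were not. Ephb1 is counted among the 11 and the 6, although its test is not read.

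**Figure D1:**
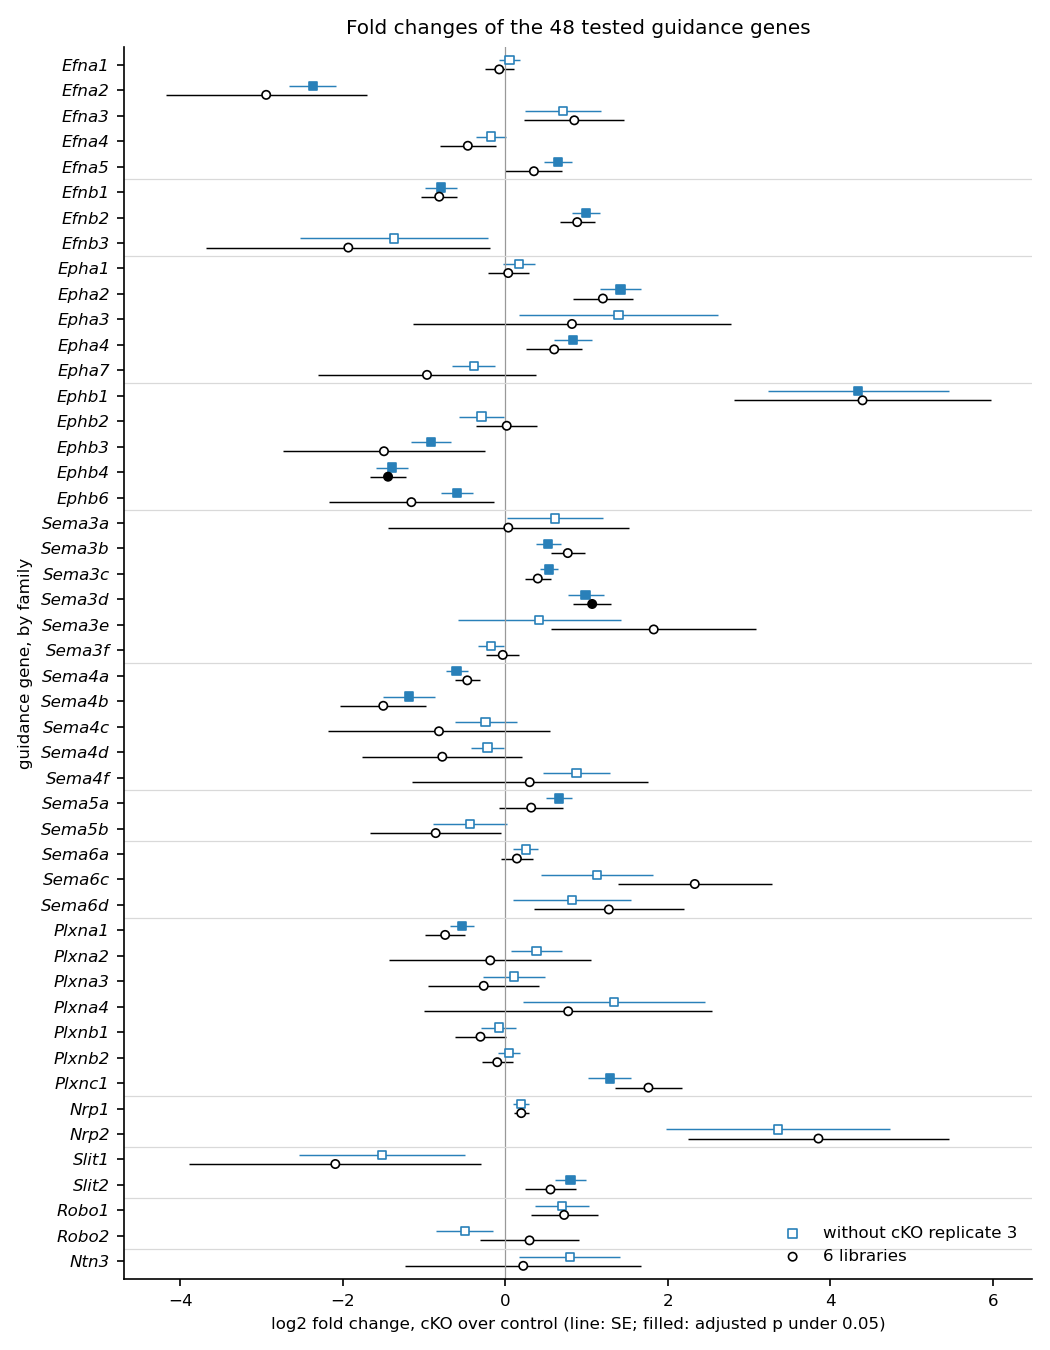
Log2 fold changes of cKO over control (horizontal axis) for the 48 tested guidance genes, grouped by family, with all 6 libraries (circles) and without cKO replicate 3 (squares). Lines are standard errors and filled symbols have an adjusted p under 0.05: with 6 libraries only Ephb4, at -1.44, and Sema3d, at 1.07, are filled, and without cKO replicate 3 there are 11 filled squares above 0, Ephb1 among them, which passed the filter only through cKO, and 8 below.

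Levels between genes were compared as FPKM, which divides counts by gene length. In controls the highest was Efna1, which encodes ephrin-A1, at 66.6 ± 10.3 FPKM (SD, n = 3), followed by Sema3c at 46.4 ± 5.14 FPKM. Next were Sema3f at 28.8 ± 5.99, Plxnb2 at 28.7 ± 5.31, Ephb3 at 23.1 ± 5.56, Ephb4 at 22.5 ± 5.48 and Efna4 at 22.1 ± 1.34 FPKM. Sema3f and Plxnb2 did not differ beyond their SD, nor did Ephb3, Ephb4 and Efna4 among themselves, while the step between Plxnb2 and Ephb3 was slightly wider than either SD. In cKO the order began with Efna1 at 64.9 ± 10.8 FPKM and Sema3c at 62.8 ± 11.4 FPKM. Ephb4 had 8.51 ± 0.903 FPKM in cKO, and Sema3d had 27.3 ± 3.04 FPKM in cKO and 12.6 ± 3.78 FPKM in controls. Summed over all 63 genes the level was 410 ± 56.1 FPKM in cKO and 410 ± 50.2 FPKM in controls.

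**Figure D2:**
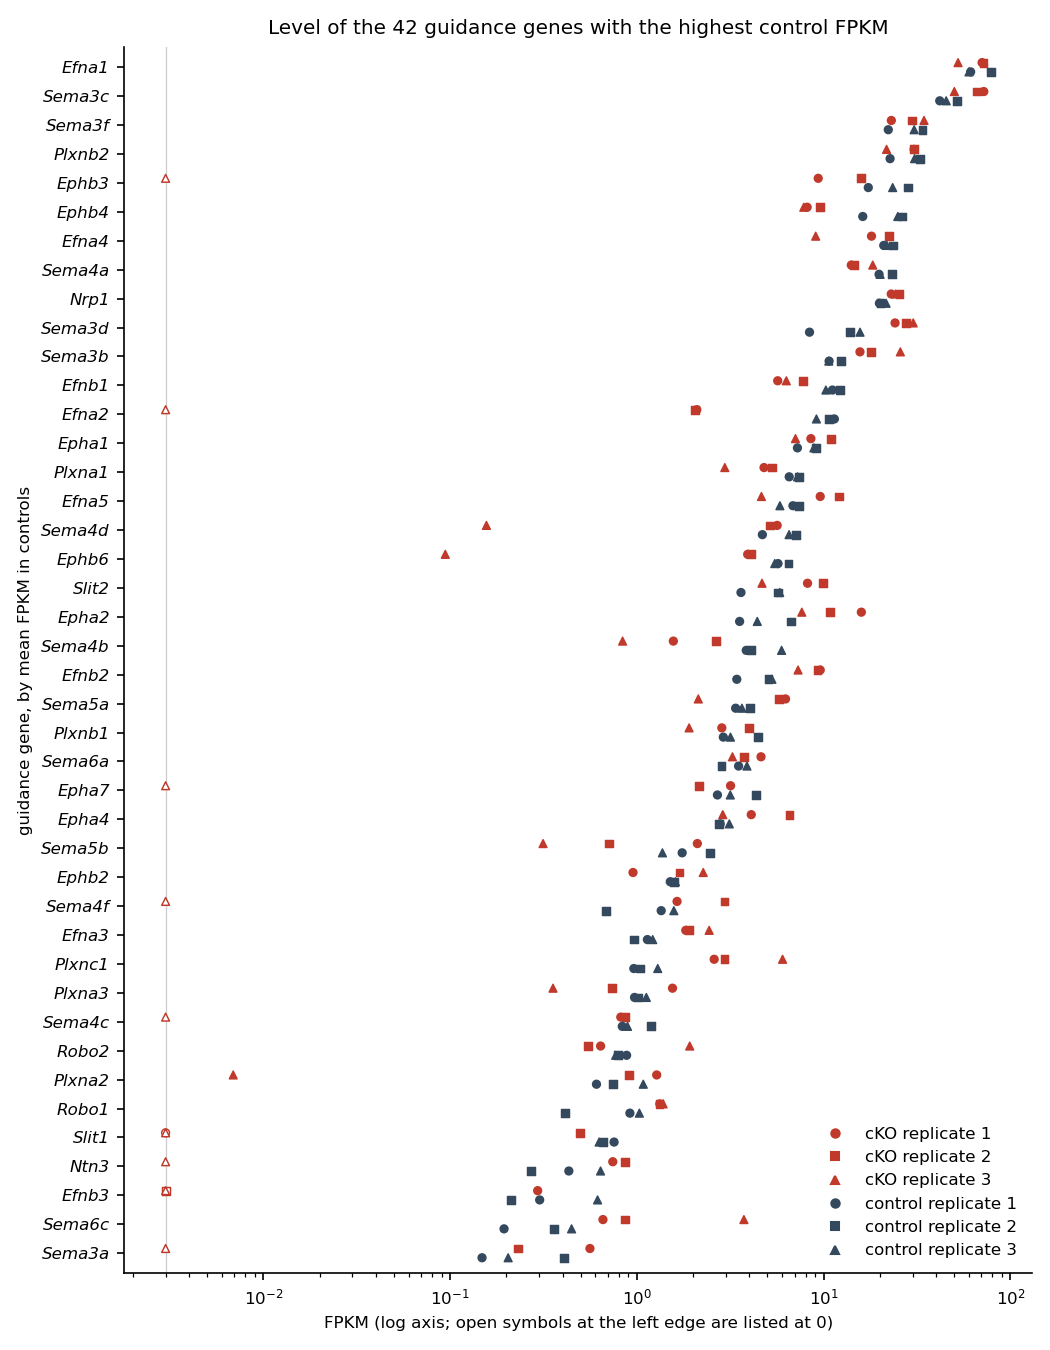
FPKM (log axis) in each library for the 42 guidance genes with the highest mean in controls, cKO libraries in red above control libraries in blue. Efna1 and Sema3c lead in both groups, at 64.9 and 62.8 FPKM in cKO and 66.6 and 46.4 FPKM in controls. Open symbols at the left edge are values listed at 0.

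Without cKO replicate 3, 13.7% of all tested genes rose and 14.9% fell. In that comparison the ephrin-B gene Efnb2 rose and Efnb1 fell, and of the 5 EphB genes Ephb3, Ephb4 and Ephb6 fell. With all 6 libraries Ephb4 alone was called among these by edgeR. For 3 of these genes the promoter is shown, since ASH2L complexes act at promoters and some carry subunits that bind unmethylated CG dinucleotides. Efnb2 encodes a ligand that rose without cKO replicate 3, Ephb4 its high-affinity receptor that fell, and Ephb1 a receptor that was nearly absent from controls. Each sequence is the 250 bases before the transcription start in RefSeq's table for build GRCm38.p6, read 5′ to 3′ on the gene's strand, with every CG in capitals. The deposited files use GRCm39, so these coordinates do not apply to them. Efnb2 is at chr8:8661243-8661492 on the minus strand, Ephb4 at chr5:137349859-137350108 on the plus strand and Ephb1 at chr9:102354694-102354943 on the minus strand.

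Efnb2: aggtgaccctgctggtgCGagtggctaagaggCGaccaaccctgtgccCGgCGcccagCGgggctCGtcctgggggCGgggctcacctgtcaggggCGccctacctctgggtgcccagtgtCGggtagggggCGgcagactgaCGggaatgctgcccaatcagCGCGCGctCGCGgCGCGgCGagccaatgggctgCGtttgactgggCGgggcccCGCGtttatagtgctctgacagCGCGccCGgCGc

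Ephb4: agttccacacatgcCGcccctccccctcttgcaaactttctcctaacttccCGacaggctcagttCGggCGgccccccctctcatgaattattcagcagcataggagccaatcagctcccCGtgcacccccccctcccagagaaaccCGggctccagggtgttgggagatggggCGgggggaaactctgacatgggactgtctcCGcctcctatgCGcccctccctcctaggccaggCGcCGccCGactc

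Ephb1: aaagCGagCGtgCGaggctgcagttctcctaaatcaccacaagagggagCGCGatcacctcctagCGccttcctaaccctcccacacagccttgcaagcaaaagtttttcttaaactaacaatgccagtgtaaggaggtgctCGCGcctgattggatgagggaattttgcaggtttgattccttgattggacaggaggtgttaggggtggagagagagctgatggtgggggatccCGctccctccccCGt

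The Efnb2 window holds 27 CG, the Ephb4 window 12 and the Ephb1 window 10. RefSeq's table had windows for 55 of the 63 members. The motif searched was CG, which reads the same on both strands. At least 1 CG was found in 98.6% of the 71 member windows, against 92.1% of all 32851 windows, and at least 10 CG in 67.6% of member windows, against 37.8% of all. The median number of CG was 15 in member windows and 6 in all windows. Over members called without cKO replicate 3 the median was 19.5 CG in 10 windows of genes that rose and 13 CG in 11 windows of genes that fell. Their ranges, 4 to 39 and 2 to 27, overlap. Genes do not weigh equally here: 4 windows of genes that fell belong to Sema4a, with 2, 3, 13 and 6 CG, and 2 to Sema4b. Sema3b among the genes that rose and Plxna1 among those that fell had no window. Each other gene that rose had 1 window. Ephb1, with 10 CG, is counted among these, although it passed the filter only through cKO and its test is not read. The difference between the medians was not tested.

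Ephb4 encodes the receptor that pairs mainly with ephrin-B2. It had 351, 400 and 335 counts in cKO replicates 1, 2 and 3, against 732, 1208 and 1144 counts in control replicates 1, 2 and 3. Every cKO library was below every control, and control replicate 1 was the lowest of the controls. Ephb4 fell in cKO with a log2 fold change of -1.44 (SE 0.218, edgeR adjusted p = 0.015), and of -1.39 without cKO replicate 3 (SE 0.199, adjusted p = 0.000226). The call was lost without cKO replicate 1 (edgeR adjusted p = 0.0584), cKO replicate 2 (0.0603), control replicate 2 (0.0803) or control replicate 3 (0.084), with log2 fold changes between -1.52 and -1.34. The Ephb4 and Zan genes share 33 exonic bases on opposite strands in GENCODE M21, but Zan had at most 20 counts in any library.

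Efnb2 encodes ephrin-B2. Its counts were 1033, 975 and 782 in cKO replicates 1, 2 and 3, against 388, 583 and 607 in control replicates 1, 2 and 3, so the groups did not overlap. Efnb2 differed by 0.89 on the log2 scale (SE 0.217) with an edgeR adjusted p of 0.0604 and passed the threshold without cKO replicate 3 (0.99, SE 0.175, adjusted p = 0.000907). Efnb1, the X-linked gene of ephrin-B1, had 188, 250 and 208 counts in cKO replicates, against 388, 433 and 363 counts in control replicates. Efnb1 differed by -0.81 on the log2 scale (SE 0.219, edgeR adjusted p = 0.0768), and it fell without cKO replicate 3 (-0.79, SE 0.2, adjusted p = 0.00979). Ephrin-B1 transcripts were the more abundant of the pair in every control, and ephrin-B2 transcripts in every cKO library. Efnb2 made up 61.6%, 54.5% and 53.6% of the summed ephrin-B FPKM in cKO replicates 1, 2 and 3, against 23.0%, 28.9% and 32.7% in control replicates 1, 2 and 3. The sum itself was 15.4 ± 1.71 FPKM in cKO and 16.2 ± 1.31 FPKM in controls (SD, n = 3 each). The ratio of Efnb2 to Ephb4 FPKM was 1.17, 0.973 and 0.932 in cKO replicates 1, 2 and 3, against 0.212, 0.193 and 0.212 in control replicates 1, 2 and 3. This ratio was chosen after its values were seen and was not tested. Efnb3 had at most 29 counts in any library.

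Efnb2 and Ephb4 are also known as endothelial genes, so endothelial markers are given beside them. Cdh5, which encodes the junction protein of endothelial cells, had at most 2 counts in any library, and Pecam1 had 6, 11 and 0 counts in cKO replicates 1, 2 and 3, against 4, 3 and 0 counts in control replicates 1, 2 and 3. Of 13 endothelial markers, 12 were in the table used, and their summed level was 33.4 to 59.1 CPM in cKO and 61.4 to 71.8 CPM in controls. Most of that sum in controls came from Egfl7. Without Egfl7 the other 11 genes summed to 16.8, 20.7 and 46.5 CPM in cKO replicates 1, 2 and 3, against 10.4, 13.8 and 17.0 CPM in control replicates 1, 2 and 3. Egfl7 had 163, 149 and 126 counts in cKO replicates, against 587, 500 and 560 counts in control replicates, and fell. The angiopoietin receptor gene Tek had 29, 29 and 0 counts in cKO, against 0, 6 and 0 counts in controls. It was the 1 endothelial marker that rose without cKO replicate 3. With few control reads, it passed the filter only through cKO, so its test is not read. Vwf had 9, 29 and 0 counts in cKO and 1, 1 and 0 counts in controls. Tie1 and Cldn5 had 183 and 113 counts in cKO replicate 3, against at most 14 counts in any other library. The part of such cells in the Efnb2 and Ephb4 differences was not tested.

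Ephb3, the most abundant EphB gene in controls, had 399, 662 and 0 counts in cKO replicates 1, 2 and 3, against 777, 1296 and 1065 counts in control replicates 1, 2 and 3. Reads of Ephb3 were lower in every cKO library, and a 0 in cKO replicate 3 allows up to 0.299 CPM by counting error alone. With 6 libraries Ephb3 differed by -1.49 on the log2 scale (SE 1.24, edgeR adjusted p = 0.552), and without cKO replicate 3 it fell (-0.92, SE 0.244, adjusted p = 0.019). Ephb6, whose kinase domain is inactive, had 209, 213 and 5 counts in cKO replicates, against 319, 369 and 311 counts in control replicates, and it too fell without cKO replicate 3 (-0.60, SE 0.198, edgeR adjusted p = 0.0372). Ephb2 overlapped between the groups, at 104, 180 and 246 counts in cKO and 173, 184 and 187 counts in controls. Ephb1 was nearly absent from controls. It had 45, 37 and 45 counts in cKO replicates 1, 2 and 3, against 0, 6 and 0 counts in control replicates 1, 2 and 3. All cKO libraries were above all controls, which held 6 counts in total, and its exons share 152 bases with Gm26846 on the opposite strand in GENCODE M21. Summed over the 5 EphB genes, the level was 23.4, 32.1 and 11.2 FPKM in cKO replicates 1, 2 and 3, against 40.8, 62.9 and 55.5 FPKM in control replicates 1, 2 and 3. That sum was lower in every cKO library than in every control, also when cKO replicate 3 with its missing Ephb3 is set aside. The difference was not tested.

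**Figure D3:**
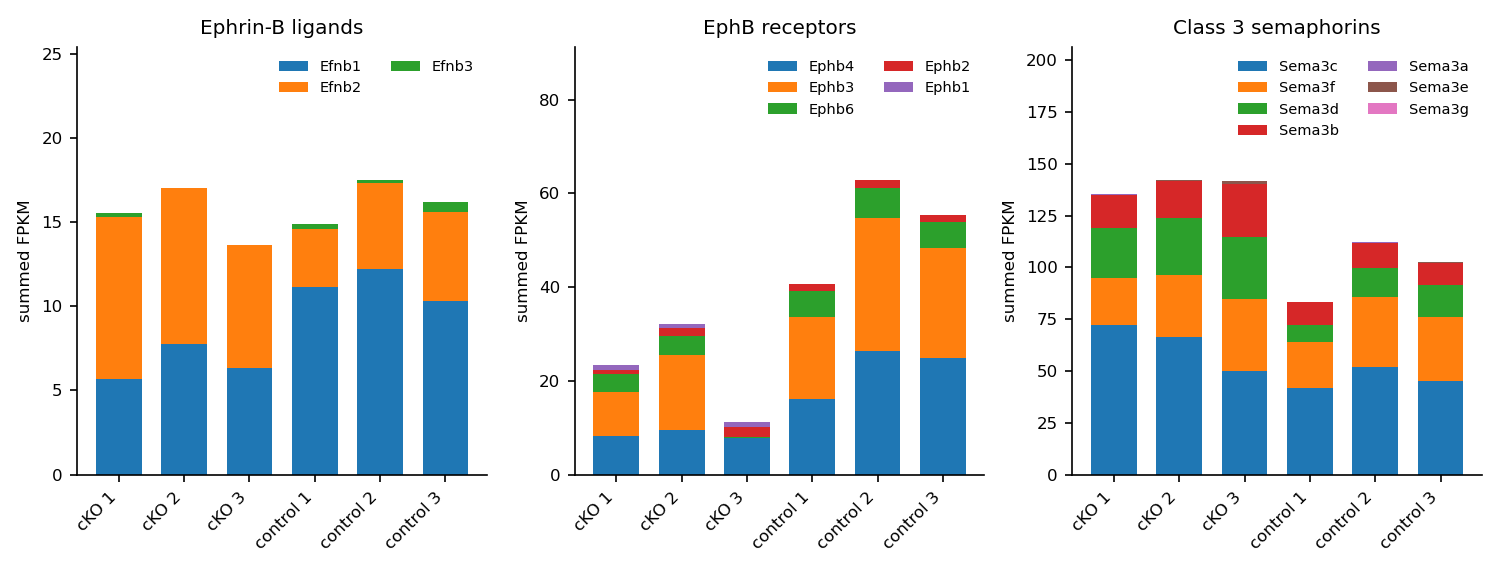
Stacked FPKM of ephrin-B ligands, EphB receptors and class 3 semaphorins in each library, cKO libraries on the left. Efnb2 (orange, left panel) makes up 53.6% to 61.6% of the ephrin-B sum in cKO and 23.0% to 32.7% in controls. The EphB sum is 11.2 to 32.1 FPKM in cKO and 40.8 to 62.9 FPKM in controls, and the class 3 sum is 135 to 142 FPKM in cKO and 83.4 to 112 FPKM in controls.

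The ephrin-A ligands and EphA receptors held no edgeR call with 6 libraries, whereas DESeq2 called Epha2 up (adjusted p = 0.0325) and limma with library weights called Efna5, Epha2 and Epha4 up and Efna2 down. By edgeR, 1 of 8 tested ephrins of both types had a positive and 1 a negative change at an unadjusted p under 0.05. The share of all tested genes at that level is not given. Such counts, here and below, are therefore not read as particular to a family. Among ephrins DESeq2 called Efnb2 up and Efnb1 down. Efna2, which encodes ephrin-A2, had 44, 42 and 0 counts in cKO replicates 1, 2 and 3, against 252, 239 and 205 counts in control replicates 1, 2 and 3. All cKO libraries were far below all controls, with replicates 1 and 2 close to each other. With 6 libraries the change in log2 units was -2.94 (SE 1.24, edgeR adjusted p = 0.218), and it fell without cKO replicate 3 (-2.37, SE 0.288, adjusted p = 5.4e-05). Among the members it had the smallest share left in cKO of those above 10 FPKM in controls, at 1.38 ± 1.2 FPKM in cKO and 10.4 ± 1.15 FPKM in controls. Efna5, an ephrin-A that can also bind EphB2, had 529, 650 and 255 counts in cKO replicates, against 397, 435 and 343 counts in control replicates. It rose only when cKO replicate 3 was left out (0.65, SE 0.171, edgeR adjusted p = 0.0117); with that library the groups overlapped (0.35, SE 0.351, adjusted p = 0.627). Efna1, the member with the highest level, differed by -0.07 on the log2 scale (SE 0.177), within the spread of the replicates. Efna3 had 55, 56 and 73 counts in cKO, against 36, 31 and 39 counts in controls. These did not overlap, but the adjusted p was 0.48 (log2 fold change 0.85, SE 0.614, edgeR). Efna3 exons share 344 bases with Gm15998 on the opposite strand in GENCODE M21. Efna4 had 284, 345 and 142 counts in cKO and 347, 397 and 366 counts in controls, and scaled to library size the groups overlapped.

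Epha2 encodes a receptor of ephrin-As that is common in epithelia. It had 653, 434 and 312 counts in cKO replicates 1, 2 and 3, against 153, 292 and 193 counts in control replicates 1, 2 and 3. Each cKO library was above each control, with the widest spread inside cKO. The fitted difference was, on the log2 scale, 1.20 (SE 0.368, edgeR adjusted p = 0.108), and Epha2 rose without cKO replicate 3 (1.42, SE 0.255, adjusted p = 0.0012). Epha4, a receptor that binds ephrins of both types, had 257, 402 and 180 counts in cKO replicates, against 184, 184 and 209 counts in control replicates. It rose without cKO replicate 3 (0.84, SE 0.232, edgeR adjusted p = 0.0158), whereas with that library the groups overlapped (0.60, SE 0.348, adjusted p = 0.368). Epha2 took a larger share of the summed EphA FPKM in cKO, at 49.99%, 34.6% and 43.4% in cKO replicates 1, 2 and 3, against 21.5%, 28.9% and 22.5% in control replicates 1, 2 and 3. Epha1, which had the highest EphA level in controls, was at 8.87 ± 1.98 FPKM in cKO and 8.41 ± 1.01 FPKM in controls, with overlapping groups. Its exons share 236 bases with those of Zyx on the opposite strand in GENCODE M21. Zyx rose (log2 fold change 1.11, edgeR adjusted p = 0.011), and reads from the 2 genes may not have been kept apart. Epha7 had 225, 149 and 0 counts in cKO and 201, 328 and 239 counts in controls and was not called in either comparison.

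**Figure D4:**
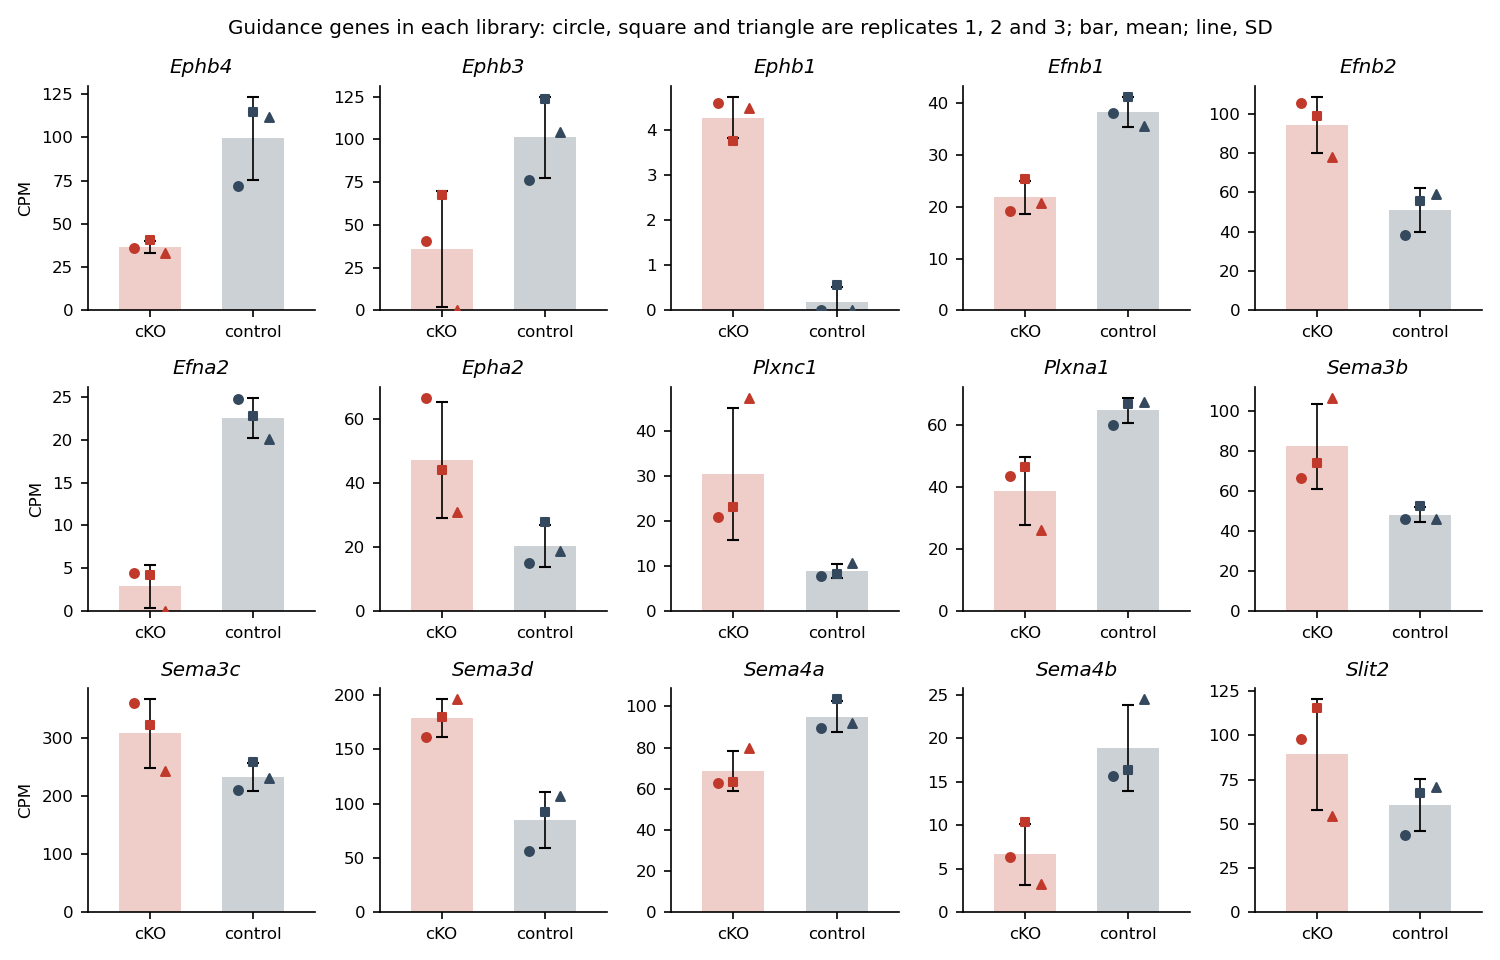
CPM in each library for 15 guidance genes, cKO on the left and controls on the right of each panel; symbols are replicates 1, 2 and 3, bars are means and lines are SD (n = 3). Ephb4 lies at 33.4 to 40.6 CPM in cKO and 71.9 to 115 CPM in controls, and Sema3d at 162 to 196 CPM in cKO and 56.8 to 107 CPM in controls. In the panels of Ephb3 and Efna2 the triangle at 0 is cKO replicate 3.

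Class 3 semaphorins are the secreted members of the family in vertebrates. Of 7 members 6 were tested, and Sema3d rose with 6 libraries and Sema3b, Sema3c and Sema3d without cKO replicate 3. Over all tested genes, 3.52% rose with 6 libraries and 13.7% without cKO replicate 3. Sema3d had 1582, 1770 and 1969 counts in cKO replicates 1, 2 and 3, against 579, 970 and 1095 counts in control replicates 1, 2 and 3. The lowest cKO library was above the highest control, and the controls varied more than cKO. Its difference on the log2 scale was 1.07 (SE 0.236, edgeR adjusted p = 0.0462), and 0.99 without cKO replicate 3 (SE 0.222, adjusted p = 0.01). The call of Sema3d was lost without any other library, at an edgeR adjusted p of 0.098 without cKO replicate 1, 0.131 without cKO replicate 2, and 0.0721, 0.155 and 0.0906 without control replicates 1, 2 and 3. Its log2 fold change stayed between 0.84 and 1.26 in these tests.

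Sema3b, which encodes another secreted semaphorin, had 653, 727 and 1069 counts in cKO replicates 1, 2 and 3, against 469, 553 and 474 counts in control replicates 1, 2 and 3. Here cKO replicate 3 was the highest library, and the groups did not overlap. The cKO over control log2 ratio was 0.77 (SE 0.21, edgeR adjusted p = 0.0798), and Sema3b rose without cKO replicate 3 (0.53, SE 0.151, adjusted p = 0.018). Sema3c, the most abundant semaphorin, had 3520, 3166 and 2436 counts in cKO replicates, against 2149, 2714 and 2361 counts in control replicates. It rose without cKO replicate 3 (0.54, SE 0.112, edgeR adjusted p = 0.00291); that library lay among the controls, and with it the log2 fold change was 0.40 (SE 0.163, adjusted p = 0.204). Sema3f was next in level, and its groups overlapped at 29.1 ± 5.75 FPKM in cKO and 28.8 ± 5.99 FPKM in controls. Sema3a, the member known to restrain bud branching, was low, with 72, 29 and 0 counts in cKO and 20, 56 and 28 counts in controls, and was not called. Sema3e had at most 21 counts in any library but cKO replicate 3, where it had 76. The summed class 3 level was 140 ± 3.79 FPKM in cKO and 99.5 ± 14.8 FPKM in controls, and no cKO library overlapped a control. That sum includes Sema3b, Sema3c and Sema3d and was not tested.

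The class 3 co-receptors were nearly all neuropilin 1. Nrp1 had 2205, 2380 and 2312 counts in cKO replicates 1, 2 and 3, against 2002, 2063 and 2205 counts in control replicates 1, 2 and 3. Scaled to library size it was slightly above every control in every cKO library, by 0.20 on the log2 scale (SE 0.0905, edgeR adjusted p = 0.256). Nrp1 made up at least 98.7% of the summed neuropilin FPKM in each cKO library and at least 99.8% in each control. Nrp2 had 11, 11 and 25 counts in cKO and 3, 0 and 0 counts in controls. The ratio of Sema3d to Nrp1 FPKM was 1.05, 1.09 and 1.24 in cKO replicates 1, 2 and 3, against 0.422, 0.687 and 0.725 in control replicates 1, 2 and 3, a comparison chosen after the values were seen.

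Plexins, the signalling receptors of semaphorins, held no edgeR call with 6 libraries under the default filter. Over the 9 tested plexins and neuropilins, 2 had a positive and 1 a negative change at an unadjusted p under 0.05 by edgeR. The positive changes were those of Plxnc1 and Nrp2, and Nrp2 passed the filter only through cKO, so its test is not read. DESeq2 called 1, Plxnc1 (adjusted p = 0.00249). Plxnc1 was also called up by edgeR at a mean CPM of at least 5 (adjusted p = 0.0473) and by limma with library weights, which called Plxna1 down as well. Plxnb2, by far the most abundant plexin and the receptor of class 4 semaphorins in the bud, was at 27.6 ± 5.04 FPKM in cKO and 28.7 ± 5.31 FPKM in controls. Its log2 fold change was -0.10 (SE 0.194), smaller than the spread of the replicates, and 0.04 without cKO replicate 3 (SE 0.138). Plxnc1, the receptor of semaphorin 7A, had 205, 227 and 474 counts in cKO replicates 1, 2 and 3, against 80, 88 and 109 counts in control replicates 1, 2 and 3. No cKO library overlapped a control, with an edgeR adjusted p of 0.0526 (1.76, SE 0.411), and Plxnc1 rose without cKO replicate 3 (1.29, SE 0.267, adjusted p = 0.00288). Plxnc1 exons share 115 bases with Gm48718 on the same strand in GENCODE M21. The ligand gene Sema7a had no reads in cKO and 3, 0 and 2 counts in controls.

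Plxna1, which works with neuropilins as a receptor of class 3 semaphorins, had 427, 458 and 262 counts in cKO replicates 1, 2 and 3, against 612, 702 and 688 counts in control replicates 1, 2 and 3. All cKO libraries were below all controls. In log2 units the change was -0.74 (SE 0.244, edgeR adjusted p = 0.129), and Plxna1 fell without cKO replicate 3 (-0.53, SE 0.152, adjusted p = 0.0186). Plxna2, Plxna3, Plxna4 and Plxnb1 overlapped between the groups. Plxnb3 and Plxnd1 did not pass the filter, and Plxnd1 had at most 7 counts in any library.

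Class 4 semaphorins span the membrane. Of these, Sema4a and Sema4b fell without cKO replicate 3, as did 14.9% of all tested genes. None of 5 tested class 4 members was called with 6 libraries by edgeR or DESeq2, while 2 had a negative change at an unadjusted p under 0.05. Sema4a, the most abundant of them, had 617, 624 and 800 counts in cKO replicates 1, 2 and 3, against 913, 1090 and 938 counts in control replicates 1, 2 and 3. All cKO libraries were below all controls, by -0.47 on the log2 scale (SE 0.151, edgeR adjusted p = 0.122), and Sema4a fell without cKO replicate 3 (-0.60, SE 0.134, adjusted p = 0.00469). Sema4b had 62, 102 and 33 counts in cKO replicates, against 160, 172 and 251 counts in control replicates. Fitted over all 6 libraries, the log2 change was -1.50 (SE 0.528, edgeR adjusted p = 0.149), and Sema4b fell without cKO replicate 3 (-1.18, SE 0.323, adjusted p = 0.0143). Sema4d, which encodes the ligand of plexin B1, had 362, 323 and 10 counts in cKO, against 317, 486 and 447 counts in controls. Sema4c, which encodes a ligand of plexin B2, had 57, 59 and 0 counts in cKO, against 61, 88 and 66 counts in controls. In both genes the low library was cKO replicate 3, and the other cKO libraries overlapped the controls. Summed over class 4, the level was 23.1 ± 3.53 FPKM in cKO and 34.2 ± 2.84 FPKM in controls, without overlap. The summed levels of classes 3 and 4 therefore differed in opposite directions, and family sums were not tested. Sums of neuropilin, Robo and class 6 genes did not overlap either. Those of ephrin-A, ephrin-B, EphA, plexin, Slit, netrin and class 5 genes overlapped between the groups.

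Among class 5 and 6 semaphorins, Sema5a, a membrane-bound member, had 713, 641 and 242 counts in cKO replicates 1, 2 and 3, against 405, 491 and 444 counts in control replicates 1, 2 and 3. It rose without cKO replicate 3 (0.66, SE 0.155, edgeR adjusted p = 0.00609), and that library was below every control (0.32 with it, SE 0.394, adjusted p = 0.706). With 6 libraries none of the 5 tested members of these classes was called by edgeR or DESeq2, and 1 had a positive change at an unadjusted p under 0.05. That gene was Sema6c, with 29, 37 and 164 counts in cKO and 9, 17 and 21 counts in controls (2.33, SE 0.948, edgeR adjusted p = 0.204). Without cKO replicate 3, its highest library, the log2 fold change of Sema6c was 1.13 (SE 0.69, adjusted p = 0.246). Sema6d had 78, 90 and 178 counts in cKO and 64, 79 and 6 counts in controls, with an edgeR adjusted p of 0.48. Sema6a, the most abundant of class 6, was at 3.87 ± 0.695 FPKM in cKO and 3.41 ± 0.532 FPKM in controls, with overlapping groups, and Sema5b overlapped too.

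Slit2, which encodes the ligand of ROBO2 in placing the bud, was the main Slit. It had 960, 1137 and 545 counts in cKO replicates 1, 2 and 3, against 444, 710 and 726 counts in control replicates 1, 2 and 3. Replicates 1 and 2 of cKO were above every control, and cKO replicate 3 lay between controls. Slit2 rose without that library (0.80, SE 0.186, edgeR adjusted p = 0.00611) and was not called with it (0.56, SE 0.319, adjusted p = 0.364). Slit1 had 0, 39 and 0 counts in cKO and 64, 57 and 54 counts in controls, and the 0 in cKO replicate 1 allows up to 0.307 CPM. These groups did not overlap, but the log2 fold change of -2.09 had an SE of 1.8 (edgeR adjusted p = 0.566). Robo1, a Slit receptor, had 216, 210 and 224 counts in cKO replicates 1, 2 and 3, against 157, 72 and 179 counts in control replicates 1, 2 and 3. It lay above every control in every cKO library, but the scatter was among the controls and the adjusted p was 0.357 (0.72, SE 0.411, edgeR). Robo2, the receptor whose loss gives extra buds in mice, had 67, 56 and 200 counts in cKO and 97, 89 and 86 counts in controls. The sign of its log2 fold change depended on cKO replicate 3, at 0.30 with it (SE 0.605) and -0.50 without it (SE 0.348), and neither passed. Over the 4 tested Slit and Robo genes no call was made with 6 libraries by edgeR or DESeq2, and none had an unadjusted p under 0.05. Slit3, Robo3 and Robo4 had at most 15 counts in any library.

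Netrin genes were nearly silent. Ntn3 was the only one of 4 tested, with 36, 41 and 0 counts in cKO and 22, 14 and 33 counts in controls, and it was called by neither edgeR nor DESeq2, with an unadjusted edgeR p of 0.883. Its exons share bases with those of Tbc1d24 and of an antisense gene in GENCODE M21, so its few reads are uncertain. Ntn4, which encodes a netrin found in basement membranes, was at 0 in all controls and had 6, 43 and 1 counts in cKO replicates 1, 2 and 3. Against a floor of 3 counts for the whole control group, cKO was at least 17.4-fold higher, but 43 of the 50 counts came from cKO replicate 2 and the gene did not pass the filter. Ntn1, the best-known family member, had at most 10 counts and Ntn5 at most 1 count in any library. In all, 15 members did not pass the filter with 6 libraries. Besides those named they were Epha5, Epha6, Epha10, Sema3g, Sema4g and Sema6b, with at most 24 counts in any library. Sema3g and Robo4 were at 0 in all controls, with 9 and 8 counts over the cKO group.

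Partners and effectors of these cues were described from a list of 77 genes of known role, of which 76 were in the table and 67 were tested. With 6 libraries 2 rose (2.99%) and 1 fell (1.49%), against 3.52% and 3.59% of all genes. Without cKO replicate 3, 10 of 71 rose (14.1%) and 5 fell (7.04%), against 13.7% and 14.9% of all genes. Those that rose include Unc5d, with 0, 8 and 2 counts in controls, and those that fell include Unc5a, with no counts in cKO. Each passed the filter only through the group where it was higher, so these tests are not read. The median log2 fold change of the list was 0.08 with 6 libraries and -0.01 without cKO replicate 3. Rnd3, a small GTPase that opposes RhoA and binds plexins, had 5833, 3642 and 3198 counts in cKO replicates 1, 2 and 3, against 953, 1622 and 1817 counts in control replicates 1, 2 and 3. It rose in cKO (1.59, SE 0.316, edgeR adjusted p = 0.0341), and no library of one group reached the other. Flrt2, which encodes a surface protein that binds UNC5 receptors, had 560, 622 and 851 counts in cKO, against 391, 332 and 290 counts in controls, and rose (1.06, SE 0.22, edgeR adjusted p = 0.0396).

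Rgs3, a regulator of G-protein signalling that acts downstream of ephrin-B, had 206, 246 and 160 counts in cKO, against 436, 454 and 584 counts in controls. Rgs3 fell by 1.21 on the log2 scale (SE 0.254, edgeR adjusted p = 0.0405). Without cKO replicate 3 all of these calls held, with adjusted p of 0.027 for Rnd3, 0.00259 for Flrt2 and 0.00156 for Rgs3 by edgeR. Each was lost without any single other library: the edgeR adjusted p lay between 0.0773 (without cKO replicate 1) and 0.132 (without control replicate 2) for Rnd3. For Flrt2 it lay between 0.068 (without cKO replicate 1) and 0.176 (without control replicate 3), and for Rgs3 between 0.0837 (without cKO replicate 2) and 0.186 (without control replicate 3). The netrin receptor gene Neo1, which encodes neogenin, had 979, 1216 and 1349 counts in cKO and 821, 901 and 1129 counts in controls and was not called, and Dcc had at most 18 counts in any library. These 2 were chosen after their values were seen.

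Summed levels are given for markers of other cell types that a sort of bud cells could hold. Several of these sums rest mostly on few genes. Over all tested genes, 3.52% rose and 3.59% fell with 6 libraries, and 13.7% rose and 14.9% fell without cKO replicate 3. The summed level of 14 nephron epithelium and podocyte markers, of which 13 were in the table, was 229.9 to 326 CPM in cKO and 98.5 to 139.6 CPM in controls, and 2 of 6 tested rose, or 4 of 8 without cKO replicate 3. Jag1 alone held 147 to 271 CPM of that sum in cKO and 81.6 to 123 CPM in controls. Nphs1, the nephrin gene of podocytes, was at 0 in all controls and had 2 counts in cKO replicate 1 and none in the other cKO libraries. For 14 stroma and smooth muscle markers the sums were 84.5 to 139 CPM in cKO and 22.5 to 32.6 CPM in controls, and 2 of 8 tested, the smooth muscle genes Acta2 and Tagln, rose. Without these 2 the other 12 summed to 13.0 to 25.7 CPM in cKO and 13.5 to 29.0 CPM in controls. Cspg4, a pericyte marker, had 0, 1 and 0 counts in cKO and 26, 20 and 5 counts in controls. It was called lower without cKO replicate 3, but passed the filter only through controls, so that test is not read. Foxd1, Pdgfra and Tcf21 had at most 9 counts in every library. Nephron progenitor markers summed to 19.7 to 30.6 CPM in cKO and 13.9 to 16.7 CPM in controls. Six2 had at most 7 counts in every library, and Cited1 rose without cKO replicate 3. In cKO replicate 3, Cited1 alone gave 17.8 of the summed 19.7 CPM. For neuron, glia and neural crest markers, 10 of 12 in the table used, the level summed to 19.5 to 31.3 CPM in cKO and 12.9 to 16.3 CPM in controls. Of these, 3 of 6 tested rose without cKO replicate 3, among them Gap43 and Elavl3. Elavl3 was at 0 in all controls and passed the filter only through cKO, so its test is not read. With 6 libraries the edgeR adjusted p of Gap43 was 0.1. In cKO replicate 3, Gap43 alone gave 19.1 of the summed 19.5 CPM. Blood and macrophage markers summed to 59.2 to 96.8 CPM in cKO and 42.3 to 438 CPM in controls, the highest value being that of control replicate 3, where the haemoglobin gene Hba-a1 had 2589 counts. Many guidance genes are expressed in these cell types as well. The part of such cells in the differences of guidance genes was not tested.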

How the data were processed

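RNA-seq of sorted ureteric bud cells was used from 3 cKO and 3 control libraries. The authors deposited raw counts per gene and FPKM values, on genome build GRCm39 per the submitters' processing notes, which name HISAT2, HTSeq, Cufflinks and DESeq; their versions and roles and the strand setting are not given in the sources used. FPKM in the deposited table equalled the counts rescaled per gene length and library, and was used to compare levels between genes. Depth is 9620235 to 10538314 counts per library; intervals and floors (3 counts) cover counting error only. The labels call the libraries biological replicates without saying whether they are single embryos or pools.

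Counts were tested with edgeR 4.0.16 in R 4.3.3 (filterByExpr, TMM, robust quasi-likelihood F-test, group as the only term) over all genes that passed the filter, with Benjamini-Hochberg adjustment and a threshold of 0.05; the script was tested on simulated data. "Rose" and "fell" mean an adjusted p below it. Shares of all tested genes at an unadjusted p under 0.05 are not given, so counts at that level are not read against a background. CPM values are TMM-scaled, and SD is over 3 libraries. Alternatives were RLE and upper-quartile scaling, DESeq2 1.42.0, limma 3.58.1 (voom, library weights, log2(FPKM + 1) and log2(FPKM + 0.1)), other filters, a non-robust fit, a replicate block and leaving out each library. The members and gene lists were chosen with earlier results of these data known. Members called with or without cKO replicate 3, partners called with 6 libraries and the most abundant members are described in full. Gene overlaps come from GENCODE M21 and are named for some members only. Promoter windows come from RefSeq (GRCm38.p6).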

Additional observations from a re-analysis of the deposited data

How the results depend on the processing

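With all 6 libraries, 1 guidance gene rose and 1 fell, and 2 partner and effector genes rose and 1 fell. These counts were the same under RLE and upper-quartile scaling, with no filter and without the robust option. DESeq2 gave 6 and 2 guidance genes and 6 and 3 partners. With library weights limma gave 12 and 6 guidance genes and 8 and 5 partners. Shares over all tested genes are not given for DESeq2 or limma, so these counts are not read as particular to the lists. Guidance genes that rose numbered 2 with limma-voom, with a mean CPM of at least 5, and with log2(FPKM + 1) or log2(FPKM + 0.1). Those that fell numbered 2 with log2(FPKM + 1). Ephb1, which passed the filter only through cKO, is among those that rose with DESeq2, library weights, either FPKM setting or without cKO replicate 3. Nrp2, which also passed only through cKO, is among those that rose with library weights. These tests of Ephb1 and Nrp2 are not read. Partners that fell numbered 2 with log2(FPKM + 1) and 0 with log2(FPKM + 0.1), where 1 rose. Leaving out 1 library gave 0 to 11 guidance genes that rose and 0 to 8 that fell. For partners these numbers were 0 to 10 and 0 to 5, and each maximum was without cKO replicate 3. The partner maxima count Unc5d and Unc5a, which passed the filter through 1 group only. The cause of these shifts was not tested.

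Replicate numbers are not stated to pair the libraries, and same-numbered libraries did not deviate together (r from -0.022 to 0.025). With a replicate block no guidance gene was called by edgeR (0 rose, 0 fell; 5 and 4 at an unadjusted p under 0.05) and no partner (0 rose, 0 fell; 6 and 1), and Ash2l had a log2 fold change of -2.50 (adjusted p = 0.0537).

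The sign of some changes near 0 depended on the setting. With library weights Efna1 was at 0.048, Plxnb2 at 0.023 and Robo2 at -0.46. Ntn3 was at -1.24 with limma-voom, -0.28 with log2(FPKM + 0.1) and -0.33 with the block. Leaving out 1 library gave -0.28 to 0.80 for Ntn3, -0.15 to 0.054 for Efna1, -0.14 to 0.17 for Epha1, -0.25 to 0.043 for Plxnb2, -0.50 to 0.60 for Robo2 and -0.021 to 0.25 for Sema6a.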
